A study of Rattus norvegicus with 12 samples.

Results

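The genes of antigen presentation by the major histocompatibility complex (MHC) were examined in adult rat ventricular myocytes (ARVMs), the contractile cells of the heart ventricles, with and without forced expression of the nuclear receptor NR4A2. Members were the rows with a gene name that begins with RT1- (the prefix of rat MHC genes) or with Tapbp, and those named B2m, Tap1, Tap2, Ciita, Cd74, Nlrc5, Erap1, Calr, Canx, or Pdia3. These names matched 60 of 17301 gene names in the files, on 71 of 18752 transcript rows. Nlrc5 matched no row and was not analysed here. ARVMs isolated from Sprague Dawley rats were transduced with an adenovirus carrying either enhanced green fluorescent protein (Ad-GFP, 6 samples) or full-length human NR4A2 cDNA driven by the CMV promoter (Ad-h-NR4A2, 6 samples). Both adenoviruses were used at a multiplicity of infection (MOI) of 50, and RNA was collected 48 h later. All samples thus carried an adenovirus, all were cultured in the same medium with the contraction inhibitor BDM, and the cells of both groups kept their own rat Nr4a2. The study describes 6 independent experiments with cells of different rats, and the labels give the same 6 sample numbers, 24 to 29, in both groups. Values are FPKM, the fragments on a transcript per kilobase of length, relative to all mapped fragments. The depth recovered from the low values was 18800000 to 28000000 fragments in Ad-GFP samples and 21500000 to 27300000 in Ad-h-NR4A2 samples.

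MHC class I molecules are heavy chains paired with beta-2-microglobulin, and they show peptides from the inside of the cell to CD8 T cells. The peptides are pumped into the endoplasmic reticulum by the TAP transporter, trimmed there, and loaded with the help of tapasin, calreticulin, calnexin, and the oxidoreductase ERp57. Class II molecules show peptides taken up from outside to CD4 T cells, use the invariant chain Cd74 on their way to endosomes, and are normally made by professional antigen-presenting cells under control of the coactivator Ciita. The class I region is among the most variable regions of mammalian genomes, and the Sprague Dawley rat is an outbred stock.

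The delivered gene is human NR4A2, and the files give the rat row Nr4a2, to which reads of the human gene may also map, so that the rat gene and the delivered one cannot be told apart here. In that row, the values followed the group labels. Nr4a2 ranged from 0.626 to 1.40 FPKM (median 0.787) in Ad-GFP samples and from 445 to 592 FPKM (median 533) in Ad-h-NR4A2 samples, with no overlap.

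The light chain, the RT1-A heavy chains, and the loading chaperones of class I presentation were well expressed in these cells, and class II genes, other than the invariant chain, were hardly expressed. Of the 60 members, 24 had a mean of at least 1 FPKM over all samples and 36 stayed below 1 FPKM in each of them. B2m had the highest level among the members, at 983 ± 141 FPKM (SD, n = 6) with Ad-GFP. Cd74 stood at 133 ± 13.1 FPKM, while no class II chain gene reached 1 FPKM in any sample. A value above 0 in all 12 samples was needed for the comparison across all genes, and 31 members passed. The other 29 did not, among them Ciita, 9 of 10 class II genes, and 16 of the RT1-M, -N, -O, -S, -T, and -Cl genes. Of these 29, 7 were listed at 0 in all samples. In such files a 0 can also be a failed estimate, and only 8 values over all rows and samples carried a failed status.

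**Figure D1:**
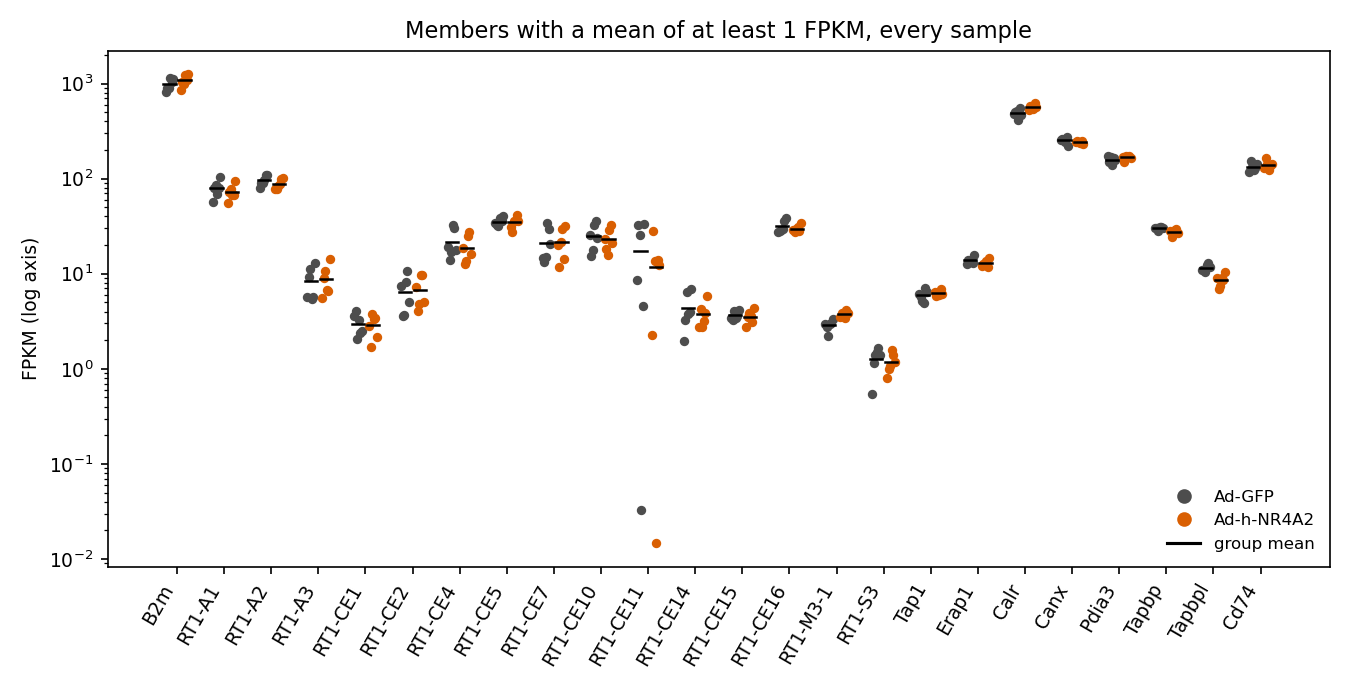
FPKM on a log axis in each sample for the 24 members with a mean of at least 1 FPKM, with Ad-GFP samples in grey, Ad-h-NR4A2 samples in orange, and black lines at the group means. Levels run from about 1 FPKM for RT1-S3 to about 1000 for B2m, and apart from RT1-M3-1 and Tapbpl the groups overlap; the 2 points near the bottom are RT1-CE11 in both samples with number 27.

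No gene of class I presentation passed both limits of the comparison with forced NR4A2 expression. None of the 31 members tested passed an adjusted p below 0.05 (limma on log2(FPKM + 0.1), Benjamini-Hochberg over all 10950 genes tested) together with a ratio of mean FPKM of at least 1.5, where 15.2% of all genes tested passed (869 higher and 793 lower). At an adjusted p below 0.05 alone, 3 of 31 members passed, and 40.9% of all genes tested. These were RT1-M3-1 and Calr, which rose, and Tapbpl, which fell. The median log2 fold change was -0.06 over the 31 members and -0.02 over all genes tested, with 12 members above 0 and 19 below. The groups did not overlap for 2 members, against 21.5% of all genes tested. In bulk RNA, less RNA per cell and fewer cells of a type cannot be told apart.

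**Figure D2:**
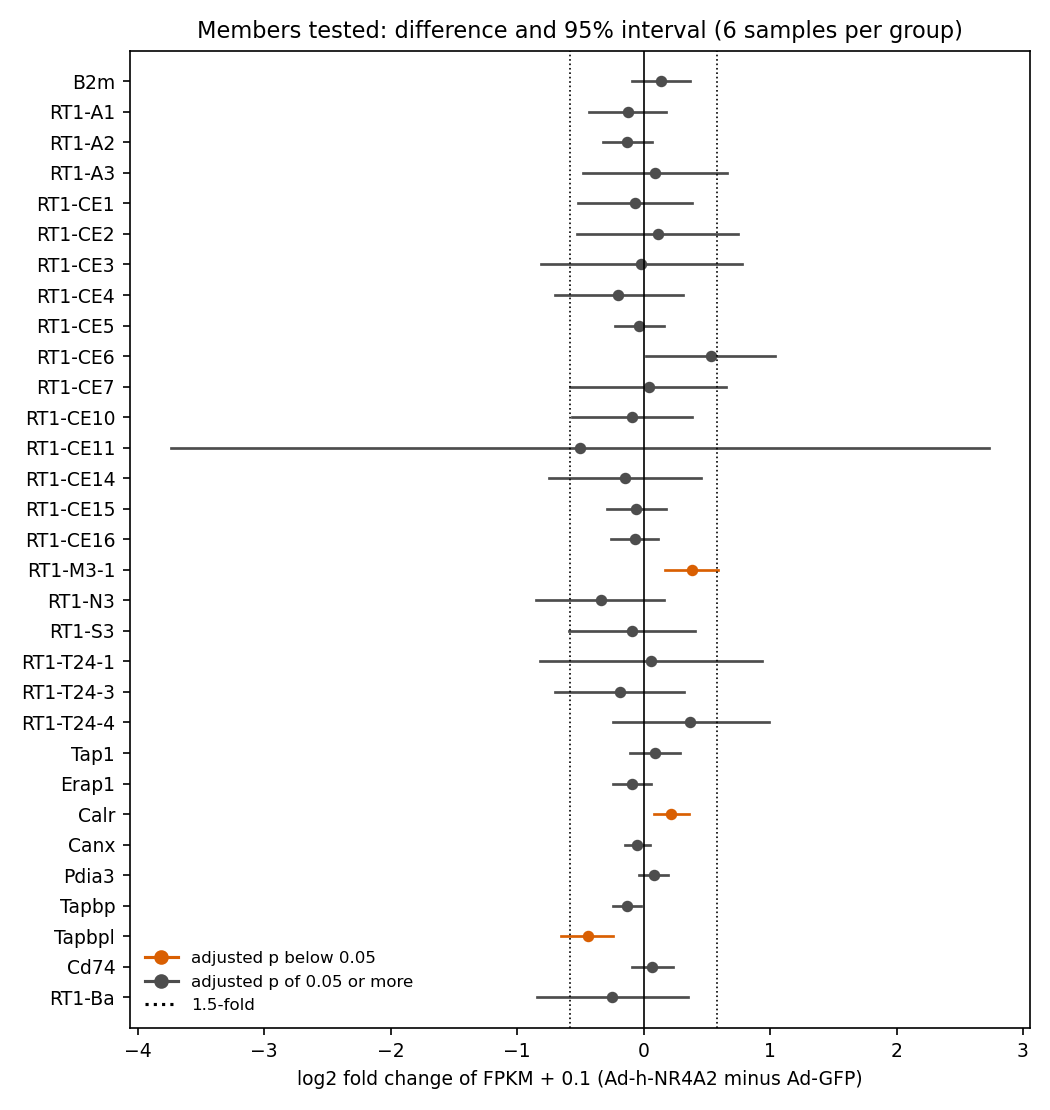
Log2 fold change of FPKM + 0.1 (Ad-h-NR4A2 minus Ad-GFP) for the 31 members tested, as points with 95% intervals from limma, dotted lines at 1.5-fold, and orange for an adjusted p below 0.05. RT1-M3-1 (0.38) and Calr (0.22) lie to the right of 0 and Tapbpl (-0.44) to the left, and the interval of RT1-CE11 (-3.74 to 2.73) is the widest.

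The light chain was slightly higher and the main class I heavy chains were slightly lower with Ad-h-NR4A2, differences that passed the test only when same-numbered samples were compared. B2m, the light chain that all class I heavy chains share (chr3:120627499-120633523, rat genome Rn5), ranged from 810.4 to 1153 FPKM (median 961) with Ad-GFP and from 862 to 1254 (median 1065) with Ad-h-NR4A2. The groups overlapped, but B2m was higher with Ad-h-NR4A2 in 6 of 6 same-numbered pairs. Its log2 fold change was 0.14 (SE 0.11, 95% interval -0.09 to 0.37, limma adjusted p = 0.336), and with a replicate block for the number of the sample the interval was 0.07 to 0.20 (limma adjusted p = 0.00225).

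RT1-A1 and RT1-A2, classical heavy chains on chromosome 20, were lower with Ad-h-NR4A2 in 6 of 6 pairs. RT1-A2 ranged from 79.7 to 110.0 FPKM (median 94.1) with Ad-GFP and from 78.1 to 101 (median 85.5) with Ad-h-NR4A2. RT1-A1 ranged from 56.6 to 105 FPKM (median 79.4) and from 55.4 to 94.0 (median 69.6), respectively. In both genes the groups overlapped widely, and neither difference passed the test. The log2 fold change was -0.13 for RT1-A2 (95% interval -0.32 to 0.07, limma adjusted p = 0.283) and -0.12 for RT1-A1 (95% interval -0.43 to 0.18, limma adjusted p = 0.514). With the replicate block, limma gave an adjusted p of 0.00315 for RT1-A2 and 0.00742 for RT1-A1. RT1-A3 stood at 8.35 ± 3.20 FPKM in Ad-GFP samples and 8.83 ± 3.31 in Ad-h-NR4A2 samples (log2 fold change 0.09, 95% interval -0.48 to 0.66).

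In all, 10 of 31 members had an adjusted p below 0.05 with the block, against 59.4% of all genes tested. They were B2m, Calr, Cd74, RT1-CE6, and RT1-M3-1, which were higher with Ad-h-NR4A2, and RT1-A1, RT1-A2, RT1-CE4, Tapbp, and Tapbpl, which were lower. With the ratio of 1.5 required as well, RT1-CE6 alone passed, against 16.7% of all genes tested. RT1-CE6 had a log2 fold change of 0.53 (limma adjusted p = 0.0916, and 0.00705 with the block). Its level was 0.172 to 0.542 FPKM with Ad-GFP and 0.290 to 0.824 with Ad-h-NR4A2, which rests on 3 to 12 and 5 to 16 fragments per sample.

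The RT1-CE genes, a cluster of near-identical class I copies, are reported with caution. Of 14 such genes, 10 share 1 stretch of chromosome 20 (20:6718277-7038454) with 14 rows, and reads that fit several copies were divided between them by the quantification of the authors. RT1-CE12, for example, carried values as low as 5.29e-308 FPKM, and RT1-CE13 was listed at 0 in all samples. Without the block, none of the 12 RT1-CE genes tested differed between groups at an adjusted p below 0.05, against 40.9% of all genes tested. With it, RT1-CE4 (limma adjusted p = 0.00864, lower in 6 of 6 pairs) and RT1-CE6 did, against 59.4% of all genes tested. The median log2 fold change of the 12 genes was -0.06. The most abundant was RT1-CE5, at 35.4 ± 3.45 FPKM in Ad-GFP samples and 34.6 ± 4.73 in Ad-h-NR4A2 samples. RT1-CE16 stood at 31.5 and 29.8 FPKM, RT1-CE10 at 25.2 and 23.3, RT1-CE4 at 21.7 and 18.8, and RT1-CE7 at 21.1 and 21.5. Lower levels were found for RT1-CE2 (6.41 and 6.78 FPKM), RT1-CE14 (4.40 and 3.77), RT1-CE15 (3.65 and 3.53), and RT1-CE1 (2.98 and 2.87), and RT1-CE3 stayed below 1 FPKM.

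Because reads can be split between copies, the FPKM of all RT1-A and RT1-CE rows was also summed within each sample. The sum was 291, 333, 343, 361, 391, and 424 in Ad-GFP samples 24 to 29, and 282, 303, 321, 335, 356, and 384 in the Ad-h-NR4A2 samples with the same numbers. It was thus lower with Ad-h-NR4A2 in each pair, while the groups overlapped. The means were 357 ± 46.6 and 330.1 ± 36.6 (SD, n = 6), a ratio of 0.924. RT1-A and RT1-CE genes contributed about equally, with sums of 184 and 174 FPKM on average in Ad-GFP samples.

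Most members varied more between sample numbers than between treatments. In a two-way split of the sum of squares of log2(FPKM + 0.1), the sample number took a median of 73.3% over the 31 members, compared with 48.0% over all genes tested. The treatment took a median of 5.8% of the members' sum of squares and 31.2% over all genes. The number has 5 degrees of freedom and the treatment 1, which gives the number the larger share by construction, so its share is to be read against that of all genes. For 4 members the treatment took more than the number, namely RT1-M3-1 (63.6% against 19.9%), Tapbpl (67.5% against 24.4%), Calr (52.0% against 39.4%), and Tapbp (42.6% against 32.4%). A limma F test of the sample number, chosen after seeing the data, gave an adjusted p below 0.05 for 15 of 31 members and 36.8% of all genes tested. Of 15 RT1-A and RT1-CE genes tested, 9 were among them.

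RT1-A3 had the largest share for the sample number among the members, 97.1% (limma adjusted p = 2.58e-04). Its FPKM was 5.69, 9.31, 11.1, 5.46, 5.69, and 12.9 in Ad-GFP samples 24 to 29 and 5.61, 9.0, 10.6, 6.76, 6.54, and 14.4 in their Ad-h-NR4A2 counterparts. Numbers 25, 26, and 29 were therefore high and 24, 27, and 28 low in both groups. RT1-CE2 had the reverse order, with 7.36, 3.62, 3.68, 8.19, 10.6, and 5.06 FPKM in Ad-GFP samples 24 to 29 and 7.25, 4.04, 4.83, 9.79, 9.74, and 5.03 with Ad-h-NR4A2. RT1-CE3 was also higher in every sample with number 24, 27, or 28 than in any with number 25, 26, or 29. RT1-CE4 and RT1-CE10, with shares of 92.9% and 94.9%, were highest in numbers 27 and 28 in both groups. RT1-CE11, with means of 17.5 and 11.8 FPKM in Ad-GFP and Ad-h-NR4A2 samples, was at 0.0327 FPKM in Ad-GFP sample 27 and 0.0147 in Ad-h-NR4A2 sample 27, and at 2.29 FPKM or more in all others. The labels do not say what else a number stands for, and the part that the division of reads between copies has in this pattern was not tested.

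**Figure D3:**
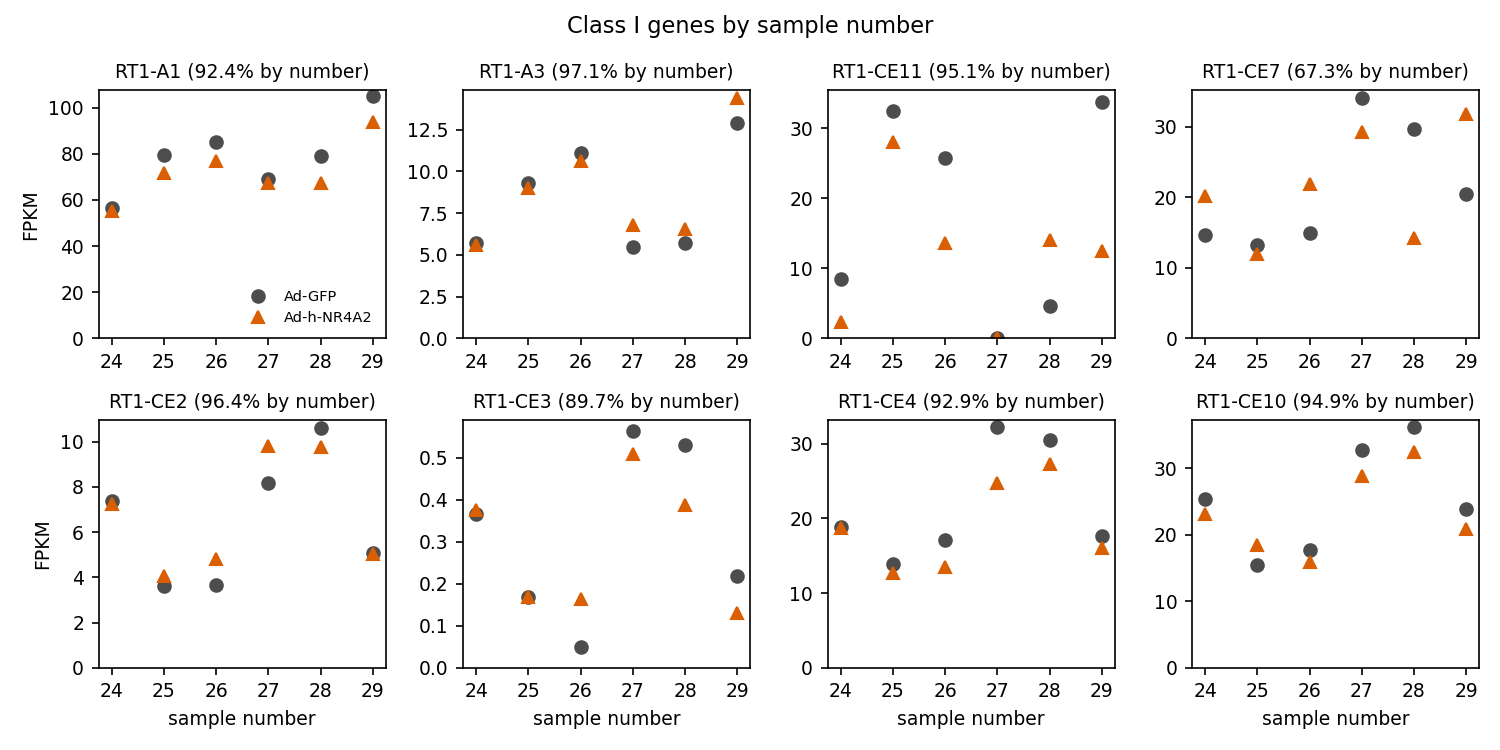
FPKM of 8 class I genes by sample number, with Ad-GFP as grey circles and Ad-h-NR4A2 as orange triangles, and the percent of the sum of squares taken by the number in each title. Circles and triangles of a number lie close together in RT1-A3 and RT1-CE2, numbers 25, 26, and 29 are high in RT1-A3 and low in RT1-CE2, and in RT1-CE7 and RT1-CE11 the symbols of a number lie farther apart.

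Among the remaining RT1 genes, RT1-M3-1 (chr20:3856748-3860887, Rn5) was the one that rose. It belongs to the nonclassical M class I genes, whose relative in the mouse presents formylated peptides. Its FPKM was 2.21 to 3.35 (median 2.97) with Ad-GFP and 3.44 to 4.14 (median 3.76) with Ad-h-NR4A2, so that the groups did not overlap and all 6 pairs moved up. The log2 fold change was 0.38 (SE 0.10, limma adjusted p = 0.00722), a rise below 1.5-fold, on 56 to 109 fragments in Ad-GFP samples and 87 to 124 fragments in Ad-h-NR4A2 samples. RT1-S3 stood at 1.28 ± 0.398 and 1.17 ± 0.280 FPKM, with a log2 fold change of -0.09 (95% interval -0.59 to 0.41). RT1-N3, RT1-T24-1, RT1-T24-3, and RT1-T24-4 passed the filter with group means of 0.219 to 0.504 FPKM, and none passed the test. The 16 others did not pass the filter and stayed below 1 FPKM. Of these, RT1-M1-5, RT1-M10-1, RT1-M4, RT1-M6-2, and RT1-T18 were listed at 0 in all samples, and RT1-Cl, RT1-M1-2, RT1-M1-4, RT1-M2, RT1-M5, RT1-M6-1, RT1-N1, RT1-N2, RT1-O1, RT1-S2, and RT1-T24-2 in at least 2 samples.

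In the steps that supply and load peptides, the chaperone calreticulin rose and the tapasin-related gene Tapbpl fell. Calr, which holds newly made heavy chains in the loading complex, ranged from 417 to 550.2 FPKM (median 488) with Ad-GFP and from 528 to 628 (median 560.0) with Ad-h-NR4A2. It was higher in 6 of 6 pairs although the groups overlapped, with a log2 fold change of 0.22 (SE 0.06, limma adjusted p = 0.0137). Tapbpl, a peptide editor that acts outside the loading complex (chr4:224752544-224759995, Rn5), ranged from 10.5 to 12.9 FPKM (median 11.5) and from 6.85 to 10.3 (median 8.80), respectively. All Ad-h-NR4A2 samples lay below all Ad-GFP samples. Its log2 fold change was -0.44 (SE 0.09, limma adjusted p = 0.00200), which is also below 1.5-fold.

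Tapasin itself, Tapbp, the bridge between the transporter and the heavy chain, stood at 30.2 ± 1.17 FPKM in Ad-GFP samples and 27.6 ± 1.90 in Ad-h-NR4A2 samples. The groups overlapped, and the log2 fold change was -0.13 (95% interval -0.24 to -0.02, limma adjusted p = 0.0585, and 0.0232 with the block). The lectin chaperone Canx stood at 252 ± 17.5 and 243 ± 7.05 FPKM, with a log2 fold change of -0.05 (95% interval -0.15 to 0.05). Pdia3, which encodes ERp57, stood at 158 ± 12.7 and 167 ± 8.15 FPKM (0.08, 95% interval -0.04 to 0.19). The trimming peptidase Erap1 stood at 13.8 ± 1.09 and 13 ± 1.14 FPKM (-0.09, 95% interval -0.24 to 0.06).

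The transporter subunits were far apart in level. Tap1 stood at 5.91 ± 0.831 FPKM in Ad-GFP samples and 6.25 ± 0.402 in Ad-h-NR4A2 samples (log2 fold change 0.09, 95% interval -0.11 to 0.29), on 268 to 488 fragments per sample. Tap2 reached at most 0.0802 FPKM in any sample for its more abundant row, and its rows together held 12 fragments over the 6 Ad-GFP samples and 8 over the 6 Ad-h-NR4A2 samples. Tap2 has 2 rows in Rn5 that lie 1.18 megabases apart on chromosome 20, as have RT1-DMa, RT1-DMb, and RT1-Ha, and reads that fit both copies are uncertain.

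Ciita, the master coactivator of class II genes (chr10:4036668-4083966, Rn5), was higher with Ad-h-NR4A2, from a control level near 0. It was listed at 0 in Ad-GFP samples 24, 25, and 26 and at 0.00776, 0.00720, and 0.0144 FPKM in Ad-GFP samples 27, 28, and 29. In Ad-h-NR4A2 samples 24 to 29 it was at 0.134, 0.408, 0.357, 0.312, 0.112, and 0.369 FPKM. Every Ad-h-NR4A2 sample was therefore above every Ad-GFP sample, and the 2 lowest of the former were 24 and 28. A two-sided exact permutation test gave p = 0.00216, the smallest value that 6 against 6 samples allow.

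In fragments, all Ciita rows together held 0, 0, 0, 1, 1, and 2 in Ad-GFP samples 24 to 29 and 14, 54, 42, 33, 14, and 41 in the Ad-h-NR4A2 samples. The totals of 4 and 198 give a ratio of 49.4 per mapped fragment, with an exact 95% interval of 19.0 to 183 that covers counting error only. Ciita did not pass the filter of the main comparison. With values of 0 kept, 53 members were tested and Ciita alone passed both limits, against 13.6% of 14040 genes. Its log2 fold change of FPKM + 0.1 was then 1.79 (SE 0.21, limma adjusted p = 2.79e-05), a scale that understates the change of a gene this low. The level with Ad-h-NR4A2 remained low, and no sample reached 1 FPKM.

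Ciita is known to be read from several alternative promoters, and the files list 3 transcripts with different starts. The transcript of 5004 nucleotides took 99.8% of the summed Ciita FPKM, and the other two did not exceed 4.28e-04 FPKM in any sample. The share of each transcript is an estimate, since the transcripts overlap. The gene that ends 1436 bases before Ciita in the coordinates of Rn5, Dexi, was looked up after these values were seen. Which end of the Ciita gene faces Dexi was not examined. Dexi ranged from 21.6 to 26.4 FPKM (median 23.2) with Ad-GFP and from 25.7 to 47.0 (median 38.4) with Ad-h-NR4A2, with overlap in Ad-h-NR4A2 sample 24 only. Its log2 fold change was 0.64 (SE 0.12, limma adjusted p = 6.69e-04) and it was higher in 6 of 6 pairs. On the other side of Ciita, the genes Nubp1 and Tvp23a were also looked up after the values were seen. Nubp1 stood at 26.7 ± 1.61 and 28 ± 1.16 FPKM (log2 fold change 0.07, 95% interval -0.03 to 0.18, limma adjusted p = 0.256). Tvp23a was listed at 0 in 7 samples, did not exceed 0.0402 FPKM in any, and was not tested.

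Only 1 of 10 class II genes was tested in the main comparison, and it did not pass in either direction. With values of 0 kept, no class II gene that could be tested passed. RT1-Ba, the alpha chain of the B molecule and the class II gene that passed the filter, ranged from 0.0766 to 0.279 FPKM (median 0.169) with Ad-GFP and from 0.0405 to 0.305 (median 0.118) with Ad-h-NR4A2. The groups overlapped, and the log2 fold change was -0.25 (95% interval -0.84 to 0.35, limma adjusted p = 0.513). RT1-Da, the alpha chain of the D molecule, held 2, 13, 7, 0, 2, and 8 fragments in Ad-GFP samples 24 to 29 and 0, 7, 3, 0, 3, and 10 in the Ad-h-NR4A2 samples. RT1-Db1 held 24 and 16 fragments over the groups, and RT1-Bb 10 and 18. These numbers are too small to show a moderate change at this depth.

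The other class II genes were as low. RT1-Db2 held 5 fragments over the Ad-GFP samples and 1 over the Ad-h-NR4A2 samples, and RT1-DOb 0 and 2. RT1-DMa and RT1-DMb, which edit class II peptides, held 3 and 0 and 11 and 19 fragments. RT1-DOa was at most 0.266 FPKM, and RT1-Ha was listed at 0 in all samples. Summed over all class II rows, FPKM was 0.640, 1.72, 1.27, 0.527, 0.504, and 0.957 in Ad-GFP samples 24 to 29 and 0.547, 1.53, 0.706, 0.243, 0.472, and 0.819 in the Ad-h-NR4A2 samples, which was lower in each pair. These sums rest on few fragments and were not tested, and RT1-Bb, RT1-DMb, and RT1-DOb held more fragments with Ad-h-NR4A2.

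Cd74, the invariant chain (chr18:55305873-55315246, Rn5), was well expressed although its class II partners were near 0. It ranged from 118 to 154 FPKM (median 131) with Ad-GFP and from 122 to 163 (median 140.0) with Ad-h-NR4A2, on 2708 to 4641 fragments per sample. The groups overlapped, and Cd74 was higher with Ad-h-NR4A2 in 5 of 6 pairs. The log2 fold change was 0.07 (95% interval -0.09 to 0.23, limma adjusted p = 0.493, and 0.0334 with the block).

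**Figure D4:**
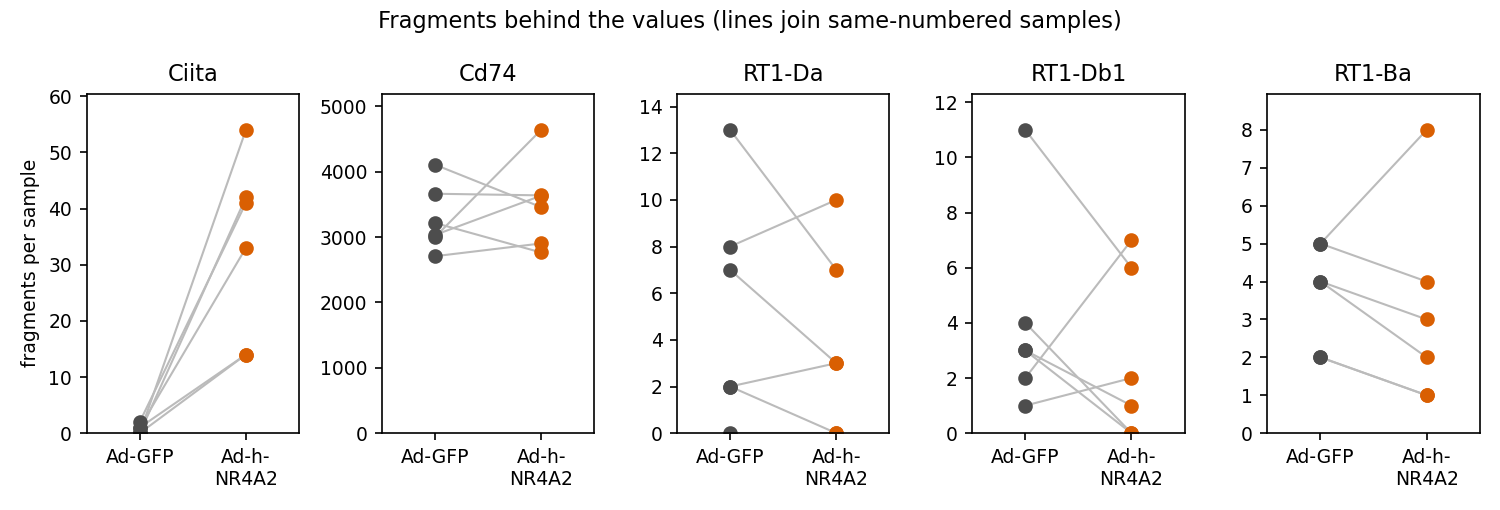
Fragments per sample for Ciita, Cd74, and the class II genes RT1-Da, RT1-Db1, and RT1-Ba, each on its own axis from 0, with grey lines joining same-numbered samples of Ad-GFP and Ad-h-NR4A2. Ciita goes from 0 to 2 fragments up to 14 to 54, Cd74 stays between 2708 and 4641, and each class II gene shown stays at 13 fragments or fewer in both groups.

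Promoters of 2 class II and 2 class I genes are shown because they hold matches to elements of MHC promoters, namely the X and Y boxes in the class II genes and the cAMP response core and Y box in the class I genes. They are the 250 bases before the RefSeq start in the genome build GRCr8, which is not the build of the files. Capitals mark matches, on either strand, to the core of the X box (GCAACNGAT), the Y box (CCAAT), the cAMP response core (TGACG), and an interferon regulatory factor element (GAAANNGAA), and no matches overlap in these 4 sequences. RT1-Da lies at chr20:4515165-4515414 (+), RT1-Db1 at chr20:4560163-4560412 (-), B2m at chr3:129549080-129549329 (+), and RT1-A2 at chr20:4872621-4872870 (+).
RT1-Da: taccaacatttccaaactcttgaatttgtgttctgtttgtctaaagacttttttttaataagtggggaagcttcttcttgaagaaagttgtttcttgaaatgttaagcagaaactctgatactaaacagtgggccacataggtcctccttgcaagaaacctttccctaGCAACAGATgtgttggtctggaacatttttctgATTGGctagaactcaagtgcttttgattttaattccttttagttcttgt
RT1-Db1: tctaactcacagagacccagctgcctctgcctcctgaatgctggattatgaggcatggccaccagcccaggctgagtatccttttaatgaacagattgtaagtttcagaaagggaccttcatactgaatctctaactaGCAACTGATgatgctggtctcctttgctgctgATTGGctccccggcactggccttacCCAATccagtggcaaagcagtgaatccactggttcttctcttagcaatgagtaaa
B2m: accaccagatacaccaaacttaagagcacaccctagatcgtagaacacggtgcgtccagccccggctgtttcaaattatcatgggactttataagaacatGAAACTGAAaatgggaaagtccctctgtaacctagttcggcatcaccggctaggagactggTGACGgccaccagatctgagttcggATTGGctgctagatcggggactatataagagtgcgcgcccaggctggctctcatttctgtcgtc
RT1-A2: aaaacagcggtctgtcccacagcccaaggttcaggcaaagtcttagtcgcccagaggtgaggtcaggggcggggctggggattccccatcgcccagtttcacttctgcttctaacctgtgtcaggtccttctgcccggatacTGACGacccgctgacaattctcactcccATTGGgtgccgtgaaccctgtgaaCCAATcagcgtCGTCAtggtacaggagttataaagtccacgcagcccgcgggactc
RT1-Da and RT1-Db1 have the X box core followed by a Y box, RT1-A2 has cAMP response cores and Y boxes, and B2m has 1 interferon element, 1 cAMP response core, and 1 Y box. Of the 60 members, 49 had a promoter in the table. The X box core was found in 4 of 9 class II promoters, in no other member, and in 0.308% of all 33469 promoters. The Y box was found in 34 of 49 members and in 34.0% of all promoters, the cAMP response core in 12 and 18.2%, and the interferon element in 7 and 8.12%. The spelling GAAANNGAA was in 0 of 15 promoters of RT1-A and RT1-CE genes. Other spellings of an interferon element were not searched, so this count does not show that these promoters lack one. The NR4A response element AAAGGTCA was not found in these 250 bases of any of the 49 members and was found in 1.24% of all promoters. The 11 members without an entry, which include Ciita, Erap1, and Pdia3, were not searched. Such matches describe letters only.

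Other genes of the pathway passed the limits about as often as genes in general. From lists of 62 such genes, 56 were tested and 8 passed both limits (14.3%, against 15.2% of all genes tested). All 8 were lower with Ad-h-NR4A2, whereas 7.24% of all genes tested passed both limits as lower. At an adjusted p below 0.05 alone, 7 were higher and 16 lower (41.1%, against 40.9% of all genes tested), and with the block 35 of 56 had an adjusted p below 0.05 (59.4% of all genes tested). The transcription factor Irf1, an activator of class I promoters, fell from 17.4 ± 1.22 to 11.0 ± 1.19 FPKM (log2 fold change -0.66, limma adjusted p = 1.16e-05), with no overlap. It was the 1 gene of 10 regulators of MHC transcription that passed both limits, and 3 of the 10 had an adjusted p below 0.05 (30.0%, against 40.9% of all genes tested). Its relative Irf2 had a log2 fold change of -0.0051 (95% interval -0.16 to 0.15). Of the factors that bind the X and Y boxes, the subunit gene Rfxank rose by 0.21 and Nfyc fell by 0.34 on the log2 scale (limma adjusted p = 0.00411 and 2.76e-04). Nfyb, also a Y box subunit, had a log2 fold change of 0.21 and was higher in 6 of 6 pairs (limma adjusted p = 0.124, and 0.00254 with the block). Rfx5 (-0.07), Rfxap (0.06), and Nfya (0.04) did not pass with or without the block.

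Of 13 interferon-induced genes tested, 6 fell past both limits, against 7.24% of all genes tested, and none rose. Usp18, a brake on interferon signalling, fell from 13 ± 1.58 to 7.60 ± 0.647 FPKM (log2 fold change -0.76, limma adjusted p = 9.67e-06). Gbp5 (-0.95), Gbp2 (-0.67), Irf7 (-0.73), Cxcl10 (-0.68), and Ifit3 (-1.27) were the others. Ifit3 missed the threshold when 1 sample was left out, for 5 of the 12 samples (limma adjusted p = 0.0549 to 0.0634), and Gbp2 and Cxcl10 missed the ratio of 1.5 without Ad-GFP sample 28 (log2 fold change -0.56 and -0.55). Isg15 had a log2 fold change of -0.16 (95% interval -1.18 to 0.87) and Ifit2 -0.02 (95% interval -0.40 to 0.36). Among 5 genes of interferon gamma receptor signalling, the inhibitor Socs1 fell from 0.586 ± 0.166 to 0.303 ± 0.0801 FPKM (-0.75, limma adjusted p = 0.00668), on 82 and 43 fragments over the groups. The kinase genes Jak1 and Jak2 each fell by 0.34 on the log2 scale (limma adjusted p = 0.00239 and 0.00176). The receptor genes Ifngr1 (-0.05) and Ifngr2 (0.11) did not pass (limma adjusted p = 0.543 and 0.128, and 0.327 and 0.00831 with the block). Ifngr2 was higher with Ad-h-NR4A2 in 6 of 6 pairs. Without the block, 3 of the 5 genes had an adjusted p below 0.05, against 40.9% of all genes tested. Socs1 alone of the 5 passed both limits, against 15.2% of all genes tested. With the block, 4 of the 5 genes had an adjusted p below 0.05 (59.4% of all genes tested).

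None of the 5 immunoproteasome genes passed both limits, against 15.2% of all genes tested. At an adjusted p below 0.05 alone, 1 of the 5 passed (20.0%, against 40.9% of all genes tested). With the block, 3 of the 5 did (59.4% of all genes tested). Psme2, a subunit of the proteasome activator, fell by 0.23 on the log2 scale (limma adjusted p = 0.00269), while the catalytic subunit genes Psmb8, Psmb9, and Psmb10 had log2 fold changes of 0.30, -0.15, and -0.09 with limma adjusted p = 0.512, 0.569, and 0.623. With the block, limma gave an adjusted p of 0.00506 for Psmb8, 0.0736 for Psmb9, 0.0555 for Psmb10, and 0.00369 for the activator subunit Psme1 (log2 fold change -0.14, lower in 6 of 6 pairs). The list for the calnexin cycle and folding in the endoplasmic reticulum held 9 genes, among them Lnpep, a peptidase and not a folding gene. Of the 9, 7 had an adjusted p below 0.05, against 40.9% of all genes tested, and none passed 1.5-fold. The chaperone Hspa5 rose most of these, from 625 ± 65.5 to 847 ± 23.1 FPKM (log2 fold change 0.44, limma adjusted p = 8.27e-05), with no overlap. Pdia6 (0.30), Uggt1 (0.25), Pdia4 (0.24), Ganab (0.22), and Prkcsh (0.17) rose as well, the peptidase Lnpep fell (-0.32), and Hsp90b1 (0.15) and P4hb (-0.03) did not pass (limma adjusted p = 0.0830 and 0.660, and 0.00329 and 0.333 with the block). Of 8 class II processing genes, 7 were tested and 2 had an adjusted p below 0.05 (28.6%, against 40.9% of all genes tested), while with the block 6 did (59.4% of all genes tested). The thiol reductase Ifi30 fell by 0.30 (limma adjusted p = 3.70e-04) and Ctsl, a cathepsin listed as Ctsl1, by 0.26 on the log2 scale (limma adjusted p = 0.0131). With the block, the proteases Ctsb (-0.12) and Lgmn (-0.16) were lower in 6 of 6 pairs (limma adjusted p = 0.00276 and 0.00138), and the ubiquitin ligase March8 (0.11) and the intramembrane protease Sppl2a (0.16) were higher in 6 of 6 pairs (0.0172 and 0.00479). Ctss, the protease that cleaves the invariant chain in professional cells, was at 0.121 and 0.145 FPKM on average in Ad-GFP and Ad-h-NR4A2 samples. No class I-like gene (Cd1d1, Mr1, Fcgrt, Hfe, Procr) and no tested co-stimulation gene (Cd40, Cd274) had an adjusted p below 0.05 without the block, against 40.9% of all genes tested, and with it Cd1d1 alone did, against 59.4% (log2 fold change -0.25, limma adjusted p = 0.0144). The block changed the number of pathway genes past both limits in neither direction, with 8 lower and 0 higher.

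Of 6 cardiomyocyte markers, 4 had an adjusted p below 0.05 and were lower with Ad-h-NR4A2 (66.7%, against 40.9% of all genes tested). Of the markers of other cell types that a culture of heart cells could hold, 2 of 6 tested macrophage markers rose past both limits. Among all genes tested, 869 of 10950 rose past both limits. The 6 cardiomyocyte markers summed to 18673 to 24179 FPKM in Ad-GFP samples and 16388 to 20072 in Ad-h-NR4A2 samples, with overlap between the groups but a lower sum in 6 of 6 pairs (ratio of means 0.829), and Tnni3 was the most abundant. Myh7 fell from 273 ± 75.4 to 154 ± 62.0 FPKM (log2 fold change -0.86, limma adjusted p = 0.0146) and Pln from 1428 ± 228 to 873 ± 200.1 (-0.72, limma adjusted p = 0.00101), past both limits, as did 7.24% of all genes tested. Myh6 (log2 fold change -0.56, limma adjusted p = 1.14e-04) and Tnnt2 (-0.26, limma adjusted p = 0.00477) fell by less than 1.5-fold, without overlap. Tnni3 (-0.22) and Actc1 (-0.09) did not pass (limma adjusted p = 0.119 and 0.531, and 0.00241 and 0.0664 with the block). Of 14 macrophage and dendritic cell markers, 13 had a row and 6 were tested. Csf1r rose from 10.1 ± 3.87 to 40.2 ± 2.35 FPKM (log2 fold change 2.06, limma adjusted p = 2.15e-06) and Cd14 from 0.222 ± 0.150 to 1.19 ± 0.587 (1.99, limma adjusted p = 4.93e-04), without overlap in either. The 13 genes summed to 12.2, 16.3, 15.6, 7.93, 18.4, and 13.6 FPKM in Ad-GFP samples 24 to 29 and to 44.8, 53.0, 45.1, 39.9, 40.7, and 47.3 in Ad-h-NR4A2 samples, and Csf1r was the most abundant. Without Csf1r and Cd14, which were left out after their values were seen, the other 11 averaged 3.63 ± 1.89 and 3.72 ± 2.92 FPKM (SD, n = 6 each) and were higher in 2 of 6 pairs.

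The other tested macrophage markers did not pass, with log2 fold changes of -0.66 for Lyz2, -0.17 for Adgre1, -0.10 for Mrc1, and 0.05 for Cd68 (limma adjusted p = 0.475, 0.789, 0.643, and 0.905). Ptprc, the pan-leukocyte gene, averaged 0.0258 and 0.0218 FPKM, Cd68 0.463 and 0.482, and Itgam 0.0664 and 0.0366, in Ad-GFP and Ad-h-NR4A2 samples. Of the Ad-h-NR4A2 samples, 24 and 28 had the lowest Cd14 (0.621 and 0.548 FPKM) and the lowest endothelial and fibroblast sums. They were also the lowest for Ciita and for its neighbour Dexi (25.7 and 33.6 FPKM). Other markers had another order. Csf1r was lowest in 27 (36.8 FPKM) and at 42.3 and 39.3 FPKM in 24 and 28. The sum of the 13 macrophage and dendritic cell markers was lowest in 27 (39.9 FPKM), as was Cd68 (0.265 FPKM). Without Csf1r and Cd14, the sum of the other 11 was lowest in 28 and 27 (0.843 and 1.32 FPKM). The smooth muscle sum was highest in 24 (16.5 FPKM) and lowest in 28 (6.86 FPKM). Lymphocyte markers (7 of 8 with a row) summed to 0.0819 to 0.318 FPKM with Ad-GFP and 0.211 to 0.355 with Ad-h-NR4A2 (ratio of means 1.58, higher in 5 of 6 pairs), with Cd3d and Ms4a1 listed at 0 in all samples. The part of macrophages and lymphocytes in the Ciita difference was not tested.

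Of the markers of endothelial cells, fibroblasts, and smooth muscle cells, none rose past the test. Endothelial markers summed to 6.95 to 21.4 FPKM with Ad-GFP and 5.90 to 20.7 with Ad-h-NR4A2, fibroblast markers to 9.05 to 30.3 and 5.82 to 26.6, and smooth muscle markers to 7.07 to 20.3 and 6.86 to 16.5. The most abundant by mean were Kdr, Vim, and Acta2, respectively, and Col1a2 was listed at 0 in all samples. Acta2 was at 12.7 and 11.0 FPKM in the Ad-GFP and Ad-h-NR4A2 samples with number 24. Its group medians of 3.10 and 2.96 FPKM lay below those of Tagln (3.13 in both). Col3a1 fell from 3.64 ± 1.42 to 1.78 ± 0.560 FPKM (log2 fold change -0.94, limma adjusted p = 0.0239) and Myh11 from 3.05 ± 0.462 to 1.97 ± 0.374 (-0.61, limma adjusted p = 0.00284), past both limits, and with the block Col1a1 did as well (log2 fold change -0.57, limma adjusted p = 0.0944, and 0.00616 with the block). Kdr (-0.48, lower in 5 of 6 pairs) and Pdgfra (-0.43, lower in 6 of 6 pairs) fell by less than 1.5-fold. Their limma adjusted p was 0.269 and 0.164, and 0.00409 and 0.0101 with the block. The part of these other cells in the small differences of class I genes was not tested.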

How the data were processed

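RNA of 12 ARVM samples (Ad-GFP, n = 6, and Ad-h-NR4A2, n = 6) was sequenced as stranded paired-end mRNA libraries. The authors used STAR to align reads to Rn5 and Cufflinks to quantify RefSeq transcripts, and deposited FPKM for 18752 transcripts. Depth was recovered from low values of transcripts of at least 800 nucleotides, in which 99.2% to 99.8% of values up to 6 fragments came out whole within 0.05, and fragment numbers are FPKM converted with that depth.

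Each gene was represented by its row with the highest mean FPKM. Log2(FPKM + 0.1) of 10950 genes above 0 in all samples was fitted with limma 3.58.1 (eBayes with trend, R 4.3.3), two-sided, without a block, and with Benjamini-Hochberg adjustment. Both limits mean an adjusted p below 0.05 and a ratio of mean FPKM of at least 1.5. Single values were compared by exact permutation over 924 splits, with Python 3.11.15, SciPy 1.17.1, pandas 2.3.3, NumPy 2.4.6, and Matplotlib 3.10.9. The fit was tested on simulated data. Groups and sample numbers come from the labels. Same-numbered samples deviated together over all genes (correlation of 0.347 to 0.623 in the 6 pairs), so that the fit with the number as a block was read as a paired analysis.

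Members called or with a mean of at least 1 FPKM, and called genes of the other lists, were named with at least a log2 fold change. The members and lists were chosen with earlier results of these data known. List genes without a row were Icosl, Itgax, and Cd79a, and March1, March8, and Ctsl1 were matched by RefSeq accession. Of the list genes, 1 is counted but not reported here by itself. Alternatives are given at the end. The F test of the sample number and the Ciita fits with values of 0 kept and another setting changed were chosen after seeing the data.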

Additional observations from a re-analysis of the deposited data

Results flagged for a closer look

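Of 82 groups of 6 values examined (the members tested, Ciita, Dexi, and the 8 pathway genes past both limits, in each treatment), 1 held a sample far from the others. Tapbp was at 28 FPKM in Ad-GFP sample 26 and at 30.0 or more in the other Ad-GFP samples, a gap of 0.626 of the group's range, just past the critical value of Dixon's test. Chance alone gives such a gap in about 1 of 20 groups.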

How the results depend on the processing

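The count of members past both limits, 0 in the comparison as reported, was 1 with no filter on low values (1 higher, Ciita), 1 with the replicate block (1 higher, RT1-CE6), and 3 with no fold-change limit (2 higher, 1 lower). Without 1 sample it was 0 to 1, and 0 to 1 among higher members. The 1 was RT1-CE6, without Ad-GFP replicate 29 (log2 fold change 0.64, limma adjusted p = 0.0480) or without Ad-h-NR4A2 replicate 27 (0.67, adjusted p = 0.0344). The replicate block changed no other call among the members. Of the pathway genes, 8 passed as reported, 23 with no fold-change limit (7 higher, 16 lower), 2 with a fold-change limit of 2 (2 lower), and 5 to 9 without 1 sample (5 to 9 lower), the 5 without Ad-GFP replicate 28, where Ifit3, Gbp2, and Cxcl10 no longer passed. Over all genes, 1662 passed as reported, 4484 with no fold-change limit, and 803 with a limit of 2. The median over the members stayed between -0.09 and -0.02 without 1 sample. Over the alternatives, the log2 fold change was 0.18 to 0.26 for Calr, 0.30 to 0.42 for RT1-M3-1, -0.50 to -0.38 for Tapbpl, and 0.34 to 4.23 for Ciita with values of 0 kept, the extremes of Ciita coming from pseudocounts of 1 and 0.01, and adjusted p reached at most 0.0429, 0.0171, 0.00575, and 4.41e-04.

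Some members that missed the threshold turned sign under some settings, and the cause was not tested. RT1-CE3 was 0.05 with a pseudocount of 0.01 and RT1-T24-1 was -0.0040 with a pseudocount of 1. Without 1 sample, 12 genes turned sign, with ranges of -0.07 to 0.23 for RT1-A3, -0.16 to 0.07 for RT1-CE1, -0.22 to 0.02 for RT1-CE10, -1.66 to 0.59 for RT1-CE11, -0.35 to 0.0043 for RT1-CE14, -0.12 to 0.0070 for RT1-CE15, -0.03 to 0.27 for RT1-CE2, -0.28 to 0.15 for RT1-CE3, -0.09 to 0.02 for RT1-CE5, -0.09 to 0.19 for RT1-CE7, -0.30 to 0.0072 for RT1-S3, and -0.21 to 0.25 for RT1-T24-1. At 18800000 to 28000000 fragments, class II genes held too few fragments for a moderate change to be detectable.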
